A study of Sus scrofa with 16 samples.

Results

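The genes described here carry fatty acids from blood lipoproteins into fat cells and bind them inside the cell. They are LPL, ANGPTL4, CD36, VLDLR, APOE, SLC27A1, CAV1, FABP3, FABP4 and FABP5. Their probes were taken by gene name from the scanner files of 16 arrays, provided that a spot was well above background on at least 8 arrays. All 10 genes had such probes, among 25517 gene names that did. All 37 probes named for them met this condition, out of 32216 probes that met it among 43603 non-control probes. Of the 37 probes, 35 entered the tests. A CD36 and an FABP4 probe did not, because outlier-flagged spots left each with 5 values in low-RFI pigs.

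Subcutaneous adipose tissue came from 8 low-RFI (RFIneg) and 8 high-RFI (RFIpl) pigs at 20 kg body weight, 1 array per pig. Residual feed intake (RFI) is the feed eaten beyond what growth and maintenance predict, and the comparison asks how selection on it shows in fat tissue. All 16 pigs had free access to feed, and age and sex are not given in the sources used here. Each line is a selected population, so a difference between lines would hold every allele that differs between them. The labels number the pigs of each line from 1 to 8 and do not say what the numbers stand for. Replicates 5 to 8 are set against replicates 1 to 4 as well, because some probes of the array passed a test between them, a count that varied with the settings. That choice was made with these data known, and the p-values between the sets do not cover it.

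Circulating triglyceride is cut by lipoprotein lipase on the capillary wall, and the fatty acids set free cross the fat cell membrane. CD36 binds fatty acids at the surface, caveolae made of caveolin take part in that step, and fatty acid transport proteins join coenzyme A to the acid on entry. Inside the cell the small fatty acid binding proteins keep the acids in solution. FABP4 is among the most abundant proteins of fat cells, FABP3 is typical of heart and skeletal muscle, and FABP5 of skin epidermis and macrophages.

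Between 68.7% and 80.3% of the spots of an array were well above background and none was saturated. Values are log2 signals relative to the 75th percentile of their array, so 0 is that percentile. Signals of different probes are not set against each other as measures of gene level. A comparison was called at a limma adjusted p under 0.05 over the 32097 probes tested, which gave 0% of probes for the lines and 5.09% for replicates 5 to 8 against 1 to 4, with 1.92% higher and 3.17% lower. The set comparison so called 1634 probes. That number was 17 probes with normexp background correction, 5337 with array weights and 590 to 4749 when single pigs were left out, lowest without high-RFI replicate 4 and highest without low-RFI replicate 3. Some arrays stood apart in their marker genes. The skeletal muscle list lay 8.23 and 1.42 above its mean over arrays in low-RFI replicates 8 and 6. The epithelium list lay 3.55 and 1.96 above its mean in high-RFI replicates 6 and 2, and the macrophage list 1.39 above it in high-RFI replicate 5. Fits were repeated without low-RFI replicate 8 and high-RFI replicates 2, 5 and 6 (4 arrays, 0 probes called between the sets), and without these and low-RFI replicate 6 (5 arrays, 46 probes). Of 14 listed adipocyte markers, 12 were measured, and their mean level lay between -0.45 and 0.29 around its average on the 16 arrays. In whole tissue, fewer cells of a type and less RNA per cell cannot be told apart.

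Probes of 1 gene were compared first, because a signal that several probes share does not hang on 1 sequence. The 2 ANGPTL4 probes followed each other over the 16 arrays with r = 0.99, and the median r between probes was 0.96 for both FABP3 and FABP5, 0.92 for LPL and 0.90 for CD36. It was 0.85 for CAV1, with a lowest pair at 0.42, and the 2 VLDLR probes gave 0.83. FABP4 probes agreed less, with a median r of 0.61 and a range from 0.05 to 0.83, and SLC27A1 probes least, with r from -0.21 to 0.71. Mean signals of the SLC27A1 probes were 0.27, -4.45 and -5.56. APOE had 1 probe by name, and a probe described as APOE but named otherwise was well above background on 0 arrays. These coefficients describe 16 arrays and share the arrays' scaling.

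Good agreement was seen between probes with little sequence in common. Both probes of ANGPTL4 and VLDLR are shown for this reason, with the main probe first and capitals for the longest run a pair shares, 6 bases of 60. The FABP3 probes shown are 2 of 4 and do not include the main one. They overlap, since the last 13 bases of the one are the first 13 of the other (capitals), and had r = 0.97.
ANGPTL4 A_72_P165341: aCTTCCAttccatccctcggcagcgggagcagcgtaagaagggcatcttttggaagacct
ANGPTL4 A_72_P718758: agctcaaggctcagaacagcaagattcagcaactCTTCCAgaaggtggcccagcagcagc
VLDLR A_72_P444542: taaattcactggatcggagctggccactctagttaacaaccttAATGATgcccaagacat
VLDLR A_72_P408328: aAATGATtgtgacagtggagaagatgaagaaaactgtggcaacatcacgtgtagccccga
FABP3 A_72_P442936: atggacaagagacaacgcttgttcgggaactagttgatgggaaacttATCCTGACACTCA
FABP3 A_72_P442944: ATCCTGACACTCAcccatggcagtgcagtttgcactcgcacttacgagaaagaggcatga

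Of the 4 FABP5 probes, 3 shared 51 to 56 bases with each other, so the agreement among these 3 is largely that of 1 window. The main FABP5 probe shared at most 9 bases in a row with them and followed them with r = 0.96, 0.92 and 0.97. Probes of different FABP genes had at most 9 bases in a row in common. The probes of FABP3, FABP4 and FABP5 were therefore distinct sequences. They were not compared with the transcripts of the related genes, so binding of a probe to the transcript of another FABP gene was not tested.

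LPL encodes lipoprotein lipase, the enzyme that releases fatty acids from triglyceride-rich particles. Its main probe, the brightest of 5, had a lowest, median and highest signal of 5.86, 6.36 and 6.95 in low-RFI pigs, against 5.92, 6.08 and 6.64 in high-RFI pigs. The groups overlapped, and 6 of 8 low-RFI pigs lay above the high-RFI mean. The difference of 0.20 (SE 0.16, limma adjusted p = 1) was not called, and its 95% interval ran from 0.917- to 1.45-fold. All 5 probes gave a difference between 0.19 and 0.25.

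The LPL difference between lines was not alike in the sets of pigs, without a call. In replicates 5 to 8 the signal was 6.75, 6.20, 6.95 and 6.55 in low-RFI pigs, against 6.09, 6.08, 5.92 and 6.64 in high-RFI pigs. In replicates 1 to 4 it was 5.86, 6.44, 5.86 and 6.28 in low-RFI pigs, against 6.08, 6.07, 6.30 and 6.09 in high-RFI pigs. High-RFI replicate 8 lay among the low-RFI pigs of its set, and in replicates 1 to 4 the low-RFI pigs lay on both sides of the high-RFI pigs. The line difference was 0.43 in replicates 5 to 8 (SE 0.19, limma adjusted p = 0.859), with 0.41 to 0.56 over the 5 probes, and -0.02 in replicates 1 to 4 (SE 0.19, adjusted p = 0.998). The test of the difference between these values gave 0.45 (SE 0.27, adjusted p = 0.777). Replicates 5 to 8 of both lines together lay 0.27 above replicates 1 to 4 (SE 0.14, adjusted p = 0.261).

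ANGPTL4 is a secreted inhibitor of lipoprotein lipase. Its signal had a lowest, median and highest value of 1.11, 1.36 and 2.63 in low-RFI pigs, against 0.73, 1.27 and 2.82 in high-RFI pigs. A pig in each line stood above the others, low-RFI replicate 4 at 2.63 and high-RFI replicate 5 at 2.82. The next pig of each line had 1.83 and 1.88. ANGPTL4 had the widest range of the main probes, 4.24-fold between its highest and lowest arrays, and the second probe followed it with r = 0.99. A probe that the files describe as ANGPTL4 but name by a transcript also followed the main probe with r = 0.99. The difference between lines was 0.01 (SE 0.28, limma adjusted p = 1), and its interval from 0.672- to 1.51-fold was the widest among the main probes. Without high-RFI replicate 5 it was 0.20, and without low-RFI replicate 4 it was -0.15.

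CD36, the fatty acid translocase of the cell surface, was similar between lines, with a lowest, median and highest signal of 6.41, 6.90 and 7.32 in low-RFI pigs, against 6.60, 6.98 and 7.18 in high-RFI pigs. The groups overlapped over most of their range. The difference was -0.02 (SE 0.13, limma adjusted p = 1), with an interval from 0.817- to 1.19-fold. The main CD36 probe was lowest in low-RFI replicate 1, where the adipocyte markers were also lowest, at -0.45. The other tested CD36 probes were lowest in high-RFI replicate 6 and low-RFI replicate 6. The part of the adipocyte markers in the CD36 value was not tested. Between replicates 5 to 8 and 1 to 4, CD36 differed by -0.12 (SE 0.13, adjusted p = 0.603). A probe described as CD36 but named otherwise, well above background on 11 arrays, had r = 0.51 with the main probe. Its set difference was 0.10 (SE 0.22, limma adjusted p = 0.809).

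**Figure D1:**
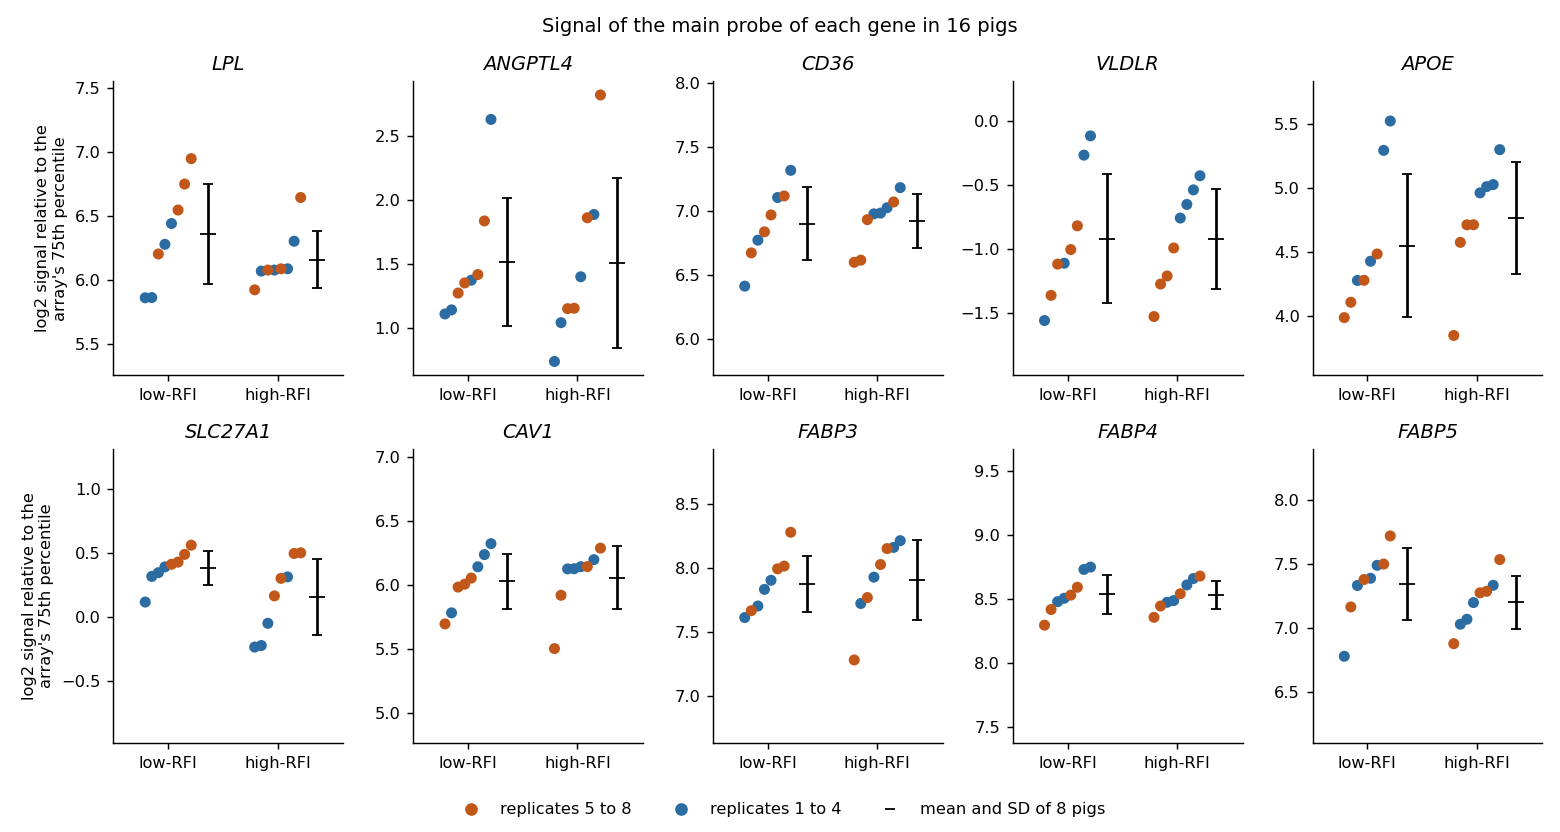
Log2 signal of the main probe of each gene relative to the array's 75th percentile, with 1 point per pig ordered by value, low-RFI left of high-RFI, and the mean and SD of 8 pigs beside the points. Colour gives the replicate set. The lines overlap in every panel, the 2 highest ANGPTL4 points (2.63 and 2.82) stand above the rest, and the replicates 5 to 8 lie low for APOE and VLDLR.

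APOE encodes apolipoprotein E, a protein of lipoprotein particles that receptors of the LDL receptor family recognise, and macrophages make it as well as fat cells. It came nearest to a call between the sets of replicates. In replicates 5 to 8 APOE was 4.11, 4.48, 4.28 and 3.99 in low-RFI pigs and 3.85, 4.71, 4.71 and 4.57 in high-RFI pigs. In replicates 1 to 4 it was 4.43, 5.29, 4.28 and 5.52 in low-RFI pigs and 5.03, 4.96, 5.30 and 5.01 in high-RFI pigs. None of the 8 pigs of replicates 5 to 8 reached the mean of replicates 1 to 4, and the sets overlapped only through low-RFI replicates 1 and 3.

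APOE averaged 4.34 ± 0.33 in replicates 5 to 8 and 4.98 ± 0.43 in replicates 1 to 4 (SD, n = 8 each). The difference of -0.64 (SE 0.18) had a limma adjusted p of 0.0532 and an interval from 0.491- to 0.839-fold. It missed the threshold, and over 28 alternative settings the adjusted p ran from 0.0106 to 0.217, with 5 of them past it. With the slide as a block the adjusted p was 0.047, without low-RFI replicate 3 it was 0.0124, and without the 4 arrays that stood apart the difference was -0.54 with an adjusted p of 0.184, and without 5 arrays it was -0.58 with an adjusted p of 0.217. Each of the 4 slides carried a pig of each line and set, and on each slide the difference was negative, at -0.66, -0.72, -0.05 and -1.13. Between lines APOE differed by -0.22 (SE 0.24, adjusted p = 1). The macrophage list ranged from -0.88 to 1.39 in replicates 5 to 8 and from -0.43 to 0.64 in replicates 1 to 4, and 1 of its 8 measured genes passed, where 5.09% of all probes did. That gene was LYZ, which encodes lysozyme, at -1.88 (SE 0.44, limma adjusted p = 0.0294). Of the 8 genes, 4 had a positive difference, and the median of the list was 0.02. In the adipocyte list 4 of 12 measured genes had a positive difference, and the median was -0.13. Of these 12, 1 passed, where 5.09% of all probes did, AQP7 at -0.67 (SE 0.15, limma adjusted p = 0.0263). The part of macrophages or fat cells in the APOE difference was not tested.

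VLDLR, a receptor that binds APOE-rich particles and brings them near lipoprotein lipase, had its pigs arranged much as APOE did. In replicates 5 to 8 it was -1.12, -1.36, -1.01 and -0.82 in low-RFI pigs and -1.53, -1.27, -0.99 and -1.21 in high-RFI pigs. In replicates 1 to 4 it was -1.11, -0.27, -1.56 and -0.12 in low-RFI pigs and -0.54, -0.76, -0.65 and -0.43 in high-RFI pigs. As with APOE, low-RFI replicates 1 and 3 were the only pigs of replicates 1 to 4 below the highest pig of replicates 5 to 8. The difference was -0.48 (SE 0.18, limma adjusted p = 0.124), and 0 of 8 pigs of replicates 5 to 8 reached the mean of replicates 1 to 4. The other VLDLR probe gave -0.17 (adjusted p = 0.626), and a probe that the files describe as VLDLR but name by a transcript gave -0.32 (adjusted p = 0.202) and followed the main probe with r = 0.92. Without low-RFI replicate 3 the difference of the main probe was -0.62 with an adjusted p of 0.0108, in a range from 0.0108 to 0.703 over 28 alternatives. The lines averaged alike, with -0.92 ± 0.50 in low-RFI pigs and -0.92 ± 0.39 in high-RFI pigs (SD, n = 8 each), and an interval from 0.732- to 1.37-fold.

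SLC27A1 encodes FATP1, a fatty acid transport protein with acyl-CoA synthetase activity. Its main probe was 0.41, 0.56, 0.43 and 0.49 in low-RFI pigs and 0.17, 0.50, 0.30 and 0.50 in high-RFI pigs of replicates 5 to 8. In replicates 1 to 4 it was 0.32, 0.35, 0.39 and 0.12 in low-RFI pigs and 0.32, -0.22, -0.05 and -0.23 in high-RFI pigs. All 8 pigs of replicates 5 to 8 lay above the mean of replicates 1 to 4, and the lowest values belonged to 3 high-RFI pigs of replicates 1 to 4. The difference between sets was 0.30 (SE 0.09, limma adjusted p = 0.0746), and without low-RFI replicate 3 its adjusted p was 0.0389, in a range from 0.0305 to 0.392 over 28 alternatives.

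Probes of SLC27A1 did not give the set difference the same sign. The others were dimmer, with means of -4.45 and -5.56 against 0.27 for the main probe. They were well above background on 15 and 13 arrays. Their set differences were 0.12 (limma adjusted p = 0.693) and -0.34 (adjusted p = 0.197), so the direction depended on the probe. Between lines the 3 probes gave 0.22, 0.29 and 0.30, all higher in low-RFI pigs, with limma adjusted p = 1 for each. The main probe averaged 0.39 ± 0.13 in low-RFI pigs and 0.16 ± 0.30 in high-RFI pigs (SD, n = 8 each), and 7 of 8 low-RFI pigs lay above the high-RFI mean. In replicates 1 to 4 its line difference was 0.34 (SE 0.13, unadjusted p = 0.0199, adjusted p = 0.71 by limma). In replicates 5 to 8 it was 0.11 (SE 0.13, adjusted p = 0.937), and the difference between these was -0.23 (SE 0.18, adjusted p = 0.818). The probe well above background on 13 arrays had the reverse order. It gave 0.02 in replicates 1 to 4 and 0.56 in replicates 5 to 8 (unadjusted p = 0.0148, adjusted p = 0.859 by limma). The difference between these was 0.53 (SE 0.28, adjusted p = 0.756). The probe on 15 arrays gave 0.41 in replicates 1 to 4 and 0.20 in replicates 5 to 8, so the order depended on the probe.

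CAV1 encodes caveolin-1, the main protein of caveolae, which cover much of the fat cell membrane. It had a lowest, median and highest signal of 5.69, 6.03 and 6.32 in low-RFI pigs, against 5.50, 6.13 and 6.29 in high-RFI pigs. The lines overlapped, and high-RFI replicate 5 lay below all other pigs. The line difference was -0.03 (SE 0.12, limma adjusted p = 1). Between the sets it was -0.19 (SE 0.11, adjusted p = 0.331), and all 5 probes named CAV1 had a negative value there, from -0.21 to -0.01. A probe described as CAV1 but named otherwise went the other way, at 0.66 (SE 0.20, limma adjusted p = 0.0671). It was well above background on 16 arrays and had r = -0.20 with the main probe.

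**Figure D2:**
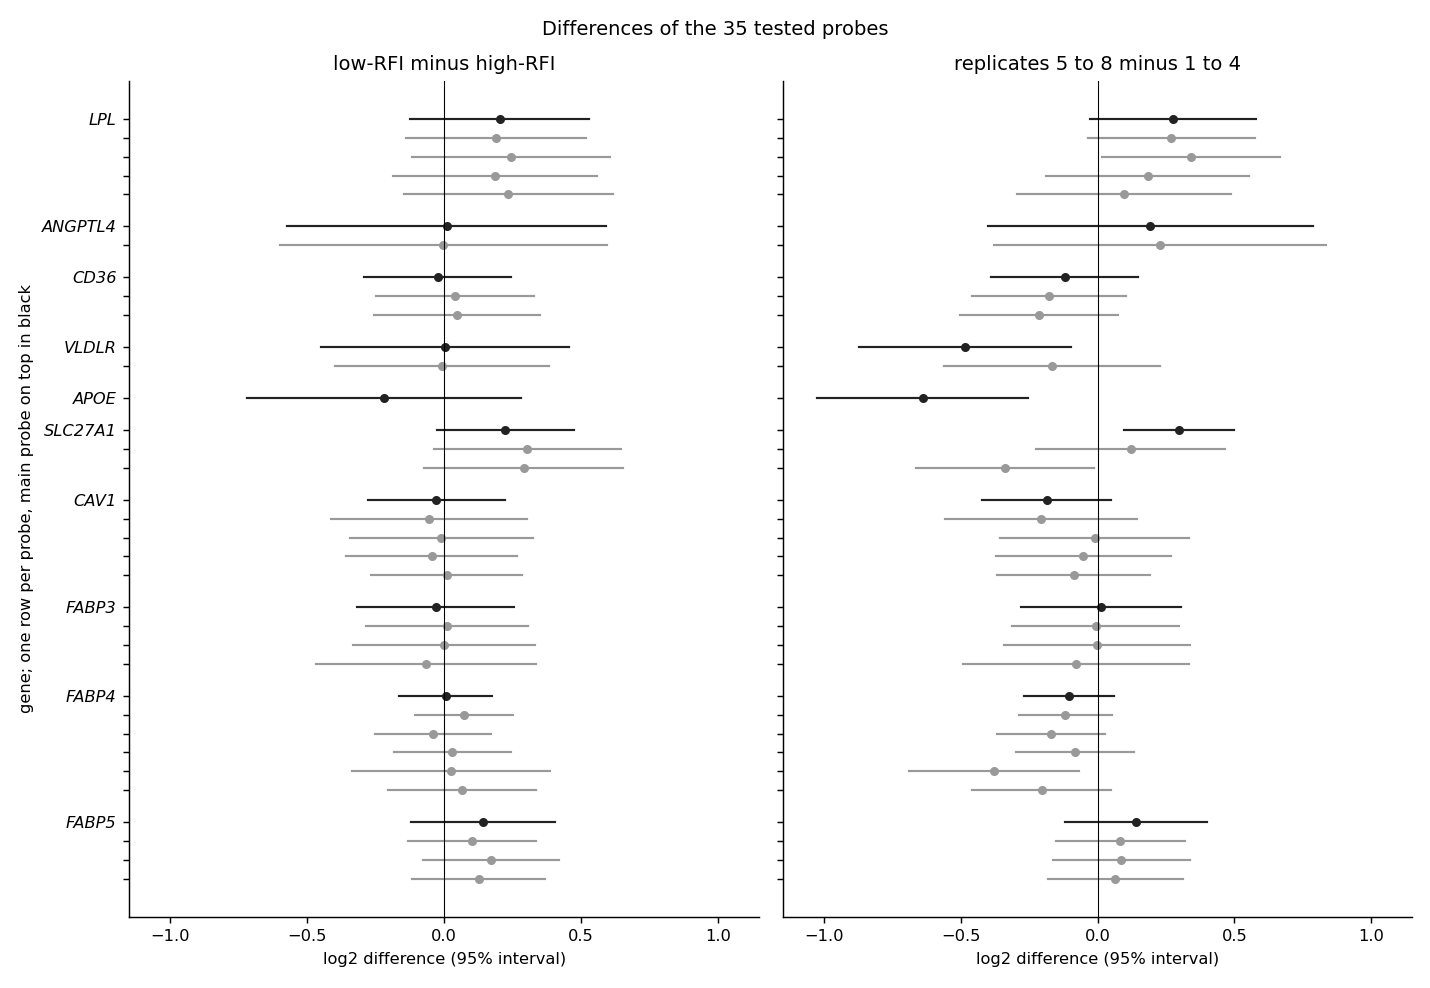
Log2 difference of the 35 tested probes with its 95% interval, 1 row per probe, main probe of a gene on top in black and its other probes in grey. The left panel is low-RFI minus high-RFI and the right panel replicates 5 to 8 minus 1 to 4. Intervals on the left all include 0 and lie within a factor of 2; on the right APOE (-0.64), VLDLR (-0.48) and SLC27A1 (0.30) have main probes whose interval leaves out 0.

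FABP4, the adipocyte fatty acid binding protein, had the narrowest range of the main probes, 1.37-fold over the 16 arrays. Its lowest, median and highest signals were 8.29, 8.52 and 8.75 in low-RFI pigs, against 8.36, 8.51 and 8.68 in high-RFI pigs. The groups covered nearly the same range, and the difference of 0.01 (SE 0.08, limma adjusted p = 1) had an interval from 0.892- to 1.13-fold. This range and interval are those of the brightest FABP4 probe, whose r with the other tested FABP4 probes was 0.05 to 0.52. The part of array scaling or of signal level in its narrow range was not tested. Over the 6 tested FABP4 probes the line difference ran from -0.04 to 0.07, and the widest interval was 0.792- to 1.31-fold. All 6 tested FABP4 probes were lower in replicates 5 to 8, by -0.38 to -0.08, and none was called.

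FABP4 probes differed in how they varied. The sequence below is shown with the APOE probe because both hold an ATG that opens a frame to the end of the probe, marked in capitals. The brightest FABP4 probe instead holds the hexamer AATAAA, the usual polyadenylation signal, at its position 53 of 60.
FABP4 A_72_P611338: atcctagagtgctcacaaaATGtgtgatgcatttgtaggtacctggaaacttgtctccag
APOE A_72_P223767: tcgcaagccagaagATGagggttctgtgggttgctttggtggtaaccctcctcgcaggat

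On the strand given in the files, an ATG that opens a frame to the probe's end occurred in 51.7% of all array probes and AATAAA in 9.60%, so neither alone places a probe. This FABP4 probe, called the ATG probe here, had an SD of 0.34 over arrays, against 0.13 for the AATAAA probe, and their r was the lowest of the FABP4 pairs, 0.05. The dimmer FABP4 probes varied more. The SD was 0.13, 0.14, 0.18 and 0.18 for probes with means of 8.53, 8.50, 8.40 and 8.07. It was 0.34 for the ATG probe, with a mean of 6.63, and 0.25 for a probe at 6.61. Whether signal level bears on the spread was not tested. The set difference of the ATG probe was -0.38 (limma adjusted p = 0.134), against -0.10 (adjusted p = 0.435) for the AATAAA probe. The signal of the ATG probe minus that of the AATAAA probe ranged over the arrays from -2.51 in low-RFI replicate 1 to -1.06 in low-RFI replicate 4. It averaged -2.04 ± 0.17 in replicates 5 to 8 and -1.76 ± 0.45 in replicates 1 to 4 (SD, n = 8 each). Its SD over all 16 arrays was 0.36, close to that of the ATG probe alone. The spread over pigs, not the mean of this difference, can be interpreted, because probes bind with different strength.

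**Figure D3:**
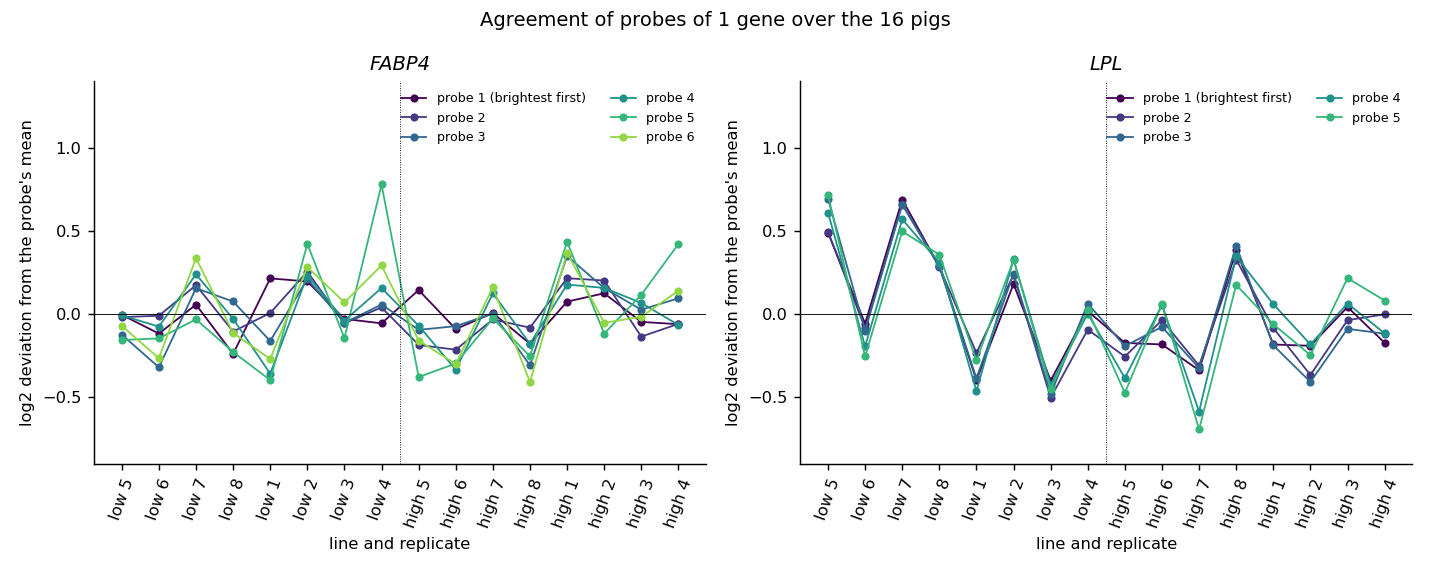
Log2 deviation of each tested FABP4 probe (left) and LPL probe (right) from its own mean, over 16 pigs, low-RFI left of high-RFI and replicates 5 to 8 before 1 to 4 within a line. The 5 LPL probes run together (median r 0.92), and the FABP4 probes spread apart (median r 0.61).

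FABP3, the heart and muscle fatty acid binding protein, had a lowest, median and highest signal of 7.61, 7.87 and 8.28 in low-RFI pigs, against 7.28, 7.98 and 8.21 in high-RFI pigs. The groups overlapped, and the difference of -0.03 (SE 0.13, limma adjusted p = 1) had an interval from 0.803- to 1.19-fold. Its highest value was in low-RFI replicate 8, the pig with muscle markers 8.23 above their mean, and its lowest in high-RFI replicate 5. In low-RFI pigs the muscle list ranged from -1.09 to 8.23 over its 13 measured genes, against -0.93 to 0.64 in high-RFI pigs. Without the 4 arrays that stood apart the FABP3 difference was -0.28 (limma adjusted p = 1), and without low-RFI replicate 6 as well, where the muscle list was 1.42, it was -0.25 (adjusted p = 1). The part of muscle in it was not tested. Between the sets FABP3 differed by 0.01 (SE 0.14, adjusted p = 0.966).

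FABP5, the epidermal fatty acid binding protein, had a lowest, median and highest signal of 6.78, 7.38 and 7.72 in low-RFI pigs, against 6.87, 7.23 and 7.53 in high-RFI pigs. The groups overlapped, with 6 of 8 low-RFI pigs above the high-RFI mean. The difference was 0.14 (SE 0.12, limma adjusted p = 1), from 0.10 to 0.17 over the 4 probes. High-RFI replicate 6, with the epithelium list 3.55 above its mean, had an FABP5 signal of 7.28, inside the range of the other high-RFI pigs. Between the sets FABP5 differed by 0.14 (SE 0.12, adjusted p = 0.521).

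Over the 35 probes, limma called 0 between lines, as it did for 0% of all probes tested. At an unadjusted p under 0.05 it found 0 of 35, where the share of all probes was 3.63%. The line differences had a median of 0.02 and ran from -0.22 to 0.30, with 23 positive and 12 negative, against a median of 0.0034 over all probes. All 35 intervals lay within 2-fold and 28 within 1.5-fold in either direction. Within replicates 5 to 8 the lines gave 3 of 35 probes at an unadjusted p under 0.05, where 5.75% of all probes did, and within replicates 1 to 4 they gave 1 of 35, where 6.27% did; limma called none in either set, on the whole array included. Between replicates 5 to 8 and 1 to 4, limma called 0 of 35, where 5.09% of all probes passed, and found 6 of 35 at an unadjusted p under 0.05, where 23.4% of all probes did. The set differences had a median of -0.05, with 14 positive and 21 negative, against -0.03 over all probes. The test of the line difference between the sets called 0 of 35, as of all probes (0%), and its smallest adjusted p was 0.744. No probe of the 10 genes separated the lines or the sets without overlap, as 0.00623% and 0.38% of all probes did.

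Correlation between genes was measured on the main probes over the 16 pigs, for 45 pairs, with 100000 permutations and Benjamini-Hochberg adjustment over the pairs. The median Pearson r was 0.12, with 31 positive and 14 negative pairs and a range from -0.53 to 0.80. APOE stood at the centre of the 2 pairs called by both coefficients. With CAV1 it had r = 0.80 and Spearman's rho = 0.78 (permutation, adjusted p = 0.00517 and 0.0182), and with VLDLR r = 0.79 and rho = 0.77 (permutation, adjusted p = 0.00517 and 0.0182). Without the 2 pigs farthest from the median of the gene named first, r was 0.70 for APOE with CAV1 and 0.67 for VLDLR with APOE.

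Both pairs were also measured within the sets of 8 pigs. APOE and CAV1 gave r = 0.81 in replicates 5 to 8 and 0.81 in replicates 1 to 4. APOE and VLDLR gave r = 0.04 in replicates 5 to 8 and 0.93 in replicates 1 to 4. The spread in replicates 1 to 4 lay mostly in the low-RFI pigs. There VLDLR had an SD of 0.69 in low-RFI and 0.14 in high-RFI pigs, and APOE 0.62 and 0.15. The difference between the coefficients of the sets was not tested, and 8 pigs give an imprecise r. Once the means of the 4 line-by-set groups were removed, r was 0.78 for APOE with CAV1 (permutation within groups, adjusted p = 0.072) and 0.74 for APOE with VLDLR (adjusted p = 0.473), and no pair was called. Values were shuffled only within groups of 4 pigs. For APOE with VLDLR most of the spread lay in the low-RFI pigs of replicates 1 to 4, which limits how small that p can be. With quantile normalization neither pair was called, at r = 0.66 for APOE with CAV1 and 0.68 for APOE with VLDLR (permutation, adjusted p = 0.0949 each). The second pair also missed with normexp background correction, at r = 0.58 (permutation, adjusted p = 0.0807), and the first without the 4 arrays that stood apart, at r = 0.75 (permutation, adjusted p = 0.0678). Without 5 arrays r was 0.75 for APOE with CAV1 (permutation, adjusted p = 0.12) and 0.89 for APOE with VLDLR (adjusted p = 0.0229). CD36 and VLDLR gave rho = 0.72 (permutation, adjusted p = 0.0399) and r = 0.66 (adjusted p = 0.0867).

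**Figure D4:**
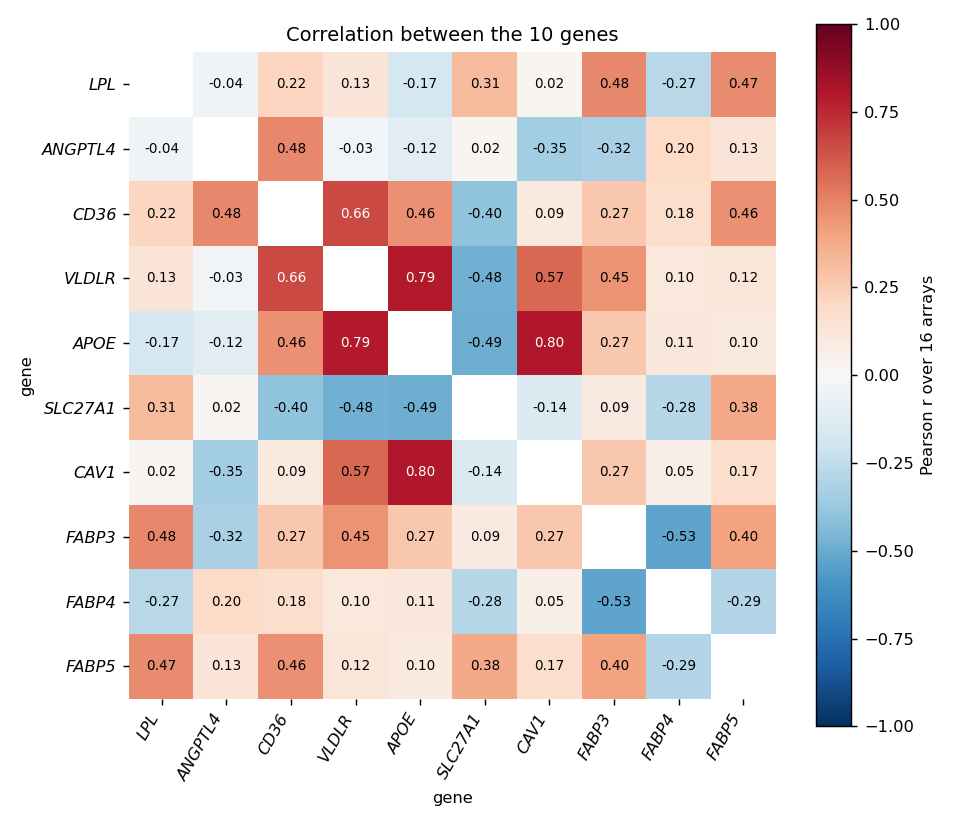
Pearson r between the main probes of the 10 genes over 16 pigs, with colour from -1 (blue) to 1 (red). The highest values are those of APOE with CAV1 (0.80) and with VLDLR (0.79), and the lowest is FABP3 with FABP4 (-0.53).

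The FABP4 probe pair was set against these genes after the values had been seen, and the adjusted p-values do not cover that choice. The difference between the FABP4 probes moved with some of the genes. Over 16 pigs it had r = 0.79 and rho = 0.72 with VLDLR (permutation, adjusted p = 0.00189 and 0.0227 over 9 genes) and r = 0.71 and rho = 0.65 with APOE (permutation, adjusted p = 0.00657 and 0.0346). Without the 2 pigs farthest from its median, low-RFI replicates 1 and 4, r was 0.78 with VLDLR and 0.66 with APOE. Within replicates 5 to 8 and within replicates 1 to 4 it was 0.74 and 0.76 with VLDLR, and 0.45 and 0.76 with APOE. With normexp background correction the r with APOE was 0.54 (permutation, adjusted p = 0.131). With CD36 r was 0.66 (permutation, adjusted p = 0.0164) and 0.35 without those pigs, so that relation rested on them. With CAV1 r was 0.48 (permutation, adjusted p = 0.111), with LPL 0.13 (adjusted p = 0.708) and with ANGPTL4 0.08 (adjusted p = 0.772). What part this probe difference has in the APOE and VLDLR signals was not tested. Measures of RNA integrity are not given in the sources used here, and whether integrity or the priming of the labelling reaction moves these probe signals was not tested.

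**Figure D5:**
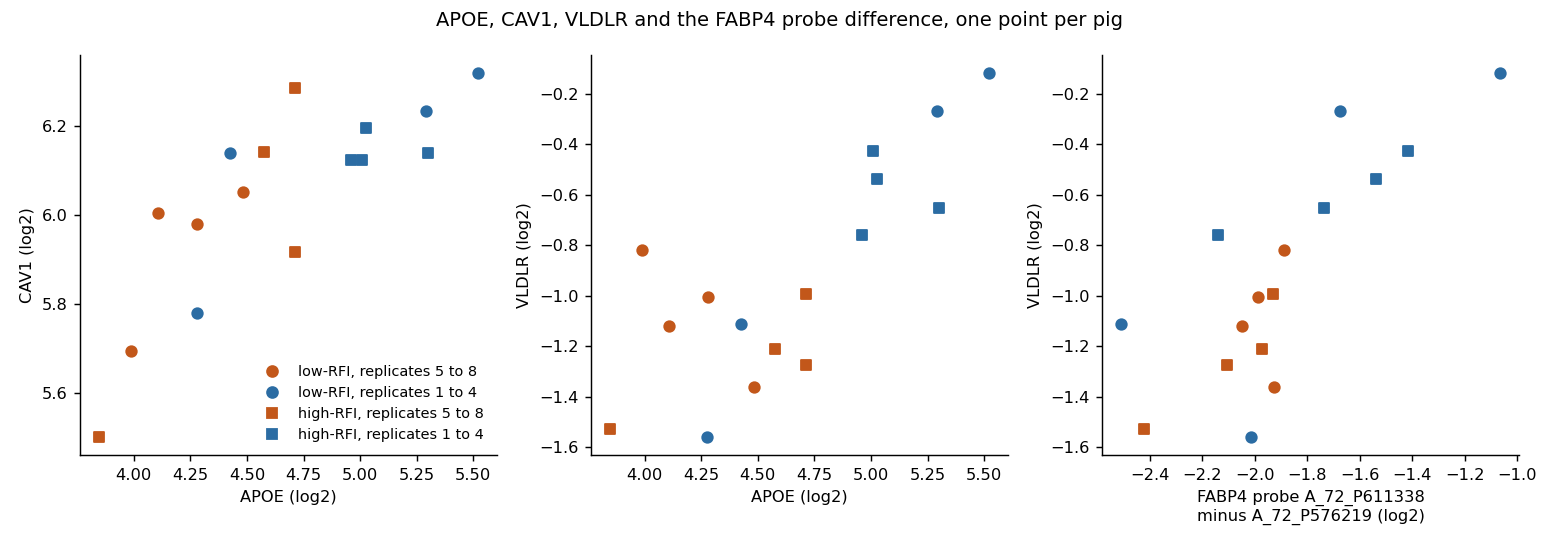
Log2 signals of 16 pigs, CAV1 against APOE (left), VLDLR against APOE (middle) and VLDLR against the difference between FABP4 probes A_72_P611338 and A_72_P576219, the ATG probe minus the AATAAA probe (right), with colour for the replicate set and shape for the line. The points give r = 0.80, 0.79 and 0.79, and in the middle panel the replicates 5 to 8 alone have r = 0.04.

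Among 2929 other named genes, the one most correlated with each member over the 16 arrays was taken as a description. VLDLR was nearest to NPC1, a lysosomal cholesterol transporter, with r = 0.95, and CD36 to ECH1, an enzyme of fatty acid oxidation, with r = 0.91. CAV1 was nearest to RGS5, a marker of pericytes, with r = 0.89. FABP3 was nearest to DLD, a subunit of mitochondrial dehydrogenase complexes, with r = 0.82. The other members had their nearest genes at r = 0.95 (APOE and DHX32), 0.92 (FABP5 and TAF2), 0.87 (SLC27A1 and TSHZ2), 0.85 (FABP4 and ARPC1B), 0.84 (LPL and PREP) and 0.78 (ANGPTL4 and FOLR1). All are highest values out of many and share the arrays' scaling.

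A list of 54 other genes of fatty acid uptake, lipoprotein receptors and their regulators had 25 members tested. Between lines 0 of 25 were called, as were 0% of all probes, and 1 had an unadjusted p under 0.05, where 3.63% of all probes did, with a median difference of -0.07. Between the sets 3 of 25 were called, 2 higher and 1 lower in replicates 5 to 8, where 5.09% of all probes were, 1.92% higher and 3.17% lower. At an unadjusted p under 0.05 there were 7 of 25, where 23.4% of all probes passed, and the list's median of 0.03 stood against -0.03 over all probes. SLC27A3, a relative of SLC27A1 in the same transporter family, averaged 3.08 ± 0.36 in replicates 5 to 8 and 2.32 ± 0.31 in replicates 1 to 4 (SD, n = 8 each), and rose by 0.77 (SE 0.16, limma adjusted p = 0.0208). NR1H3, the oxysterol receptor LXR alpha that activates APOE transcription in macrophages and fat tissue, averaged 4.39 ± 0.25 in replicates 5 to 8 and 3.87 ± 0.17 in replicates 1 to 4, and rose by 0.52 (SE 0.11, limma adjusted p = 0.0188). LRP8, an APOE receptor close to VLDLR, averaged -5.27 ± 0.34 in replicates 5 to 8 and -4.72 ± 0.25 in replicates 1 to 4, and fell by 0.56 (SE 0.15, limma adjusted p = 0.0413). With normexp background correction none of the 3 passed and the LRP8 difference was 0.0028, and none passed without the 4 arrays that stood apart, with adjusted p of 0.058, 0.0756 and 0.121 for SLC27A3, NR1H3 and LRP8, or without 5 arrays. LRP8 also lost its call without a filter on dim probes (adjusted p = 0.0656) and in 12 of the 16 fits that left out a single pig.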

How the data were processed

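RNA from the subcutaneous fat of 16 pigs was read on 16 Agilent 1-colour arrays, 150 ng of Cy3-labelled RNA each per the labels' protocols. The deposited processed intensities were, per the file headers, background-subtracted by Feature Extraction 10.7.3.1. The deposited value table holds log2 processed signals minus each array's median, checked against the scanner files; the submitters' processing notes list R 2.10.0. The genome build is not given in the sources used here.

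Outlier spots were left out, spots of a probe averaged, and log2 values scaled to each array's 75th percentile. Probes well above background on at least 8 arrays were kept, and those with at least 6 values per line and 2 per line and set were tested. The main probe is the kept probe with the highest mean. limma 3.58.1 in R 4.3.3 (lmFit, eBayes, two-sided, Benjamini-Hochberg over all 32097 probes) compared the lines, the sets with line in the model, and their interaction. Differences are low-RFI minus high-RFI and replicates 5 to 8 minus 1 to 4, and SE is the model's. Correlations were permuted two-sided in Python with numpy (versions 3.11.15 and 2.4.6). The procedure was tested on simulated data. The number of arrays limits the precision, and the labels do not say whether pigs share litters.

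All 10 genes are named, other probes where sign or call differs, and up to 3 called genes of the context list per direction. The genes, lists and rule were chosen with earlier results of these data known. Each of 4 slides held 1 array of each line and set. Same-numbered pigs of the lines correlated at -0.29 to 0.32, so numbers were not treated as pairs.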

Additional observations from a re-analysis of the deposited data

Results flagged for a closer look

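In the high-RFI line, CAV1 of replicate 5 lay apart from the other 7 pigs. Its signal was 5.50, the gap to the next pig made up 0.530 of the group's range, and 0.526 is Dixon's 95% critical value for 8 samples. Of 20 groups examined, 10 genes in each line, this was the only 1, and chance marks about 1 group in 20. The same pig had the lowest APOE (3.85) and FABP3 (7.28) and the highest ANGPTL4 (2.82), and its macrophage and T or NK cell lists lay 1.39 and 1.45 above their means. The part of those cells was not tested.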

How the results depend on the processing

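Line and line-by-set counts of member probes stayed at 0 under every alternative. Between the sets, 1 member probe was called with a filter of all 16 arrays, 1 with slide as a block, 4 with array weights, and 0 to 3 when single pigs were left out, with 2 without low-RFI replicate 1 and 3 without low-RFI replicate 3. On the whole array the set count was 17 with normexp correction, 836 without a filter, 5337 with array weights, 0 without the 4 arrays that stood apart, 46 without 5 arrays (alternatives added after seeing the data), and 590 to 4749 without single pigs, lowest without high-RFI replicate 4 and highest without low-RFI replicate 3. The causes were not tested. The line count on the whole array was 0 to 1 without single pigs. With the replicate block, line called 0 probes and line by set called 1, and without 5 arrays line by set called 2; the same-numbered pigs share only a number. Correlated pairs numbered 7 with normexp, 0 with quantile normalization, 0 with group means removed, and 2 to 3 without single pigs.

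Differences near 0 changed sign. With normexp the line difference was 0.10 for CD36, 0.0919 for FABP3, -0.0745 for VLDLR and 0.10 for CAV1, the set difference was -0.031 for FABP3 and 0.0028 for LRP8, and line by set was 0.0178 for CAV1. Quantile normalization gave line -0.0163 for FABP4 and -0.0026 for ANGPTL4, and line by set -0.0696 for FABP5. Line by set of CAV1 was 0.0342 with median scaling, 0.0114 in the authors' deposited table and 0.0174 without the 4 arrays. The VLDLR line difference was -0.0007 with outlier spots kept, -0.17 with array weights and -0.17 without the 4 arrays and -0.0986 without 5 arrays, where line by set of FABP4 was 0.0197. Without single pigs, the line difference ran from -0.0824 to 0.0469 for CD36, -0.12 to 0.0129 for FABP3, -0.0244 to 0.0404 for FABP4, -0.11 to 0.0942 for VLDLR, -0.11 to 0.0196 for CAV1 and -0.15 to 0.20 for ANGPTL4. The set difference of FABP3 ran from -0.0479 to 0.11, and line by set from -0.26 to 0.16 for APOE, -0.16 to 0.11 for CAV1 and -0.0488 to 0.20 for FABP5.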
